A study of Mus musculus with 44 samples.

Results

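Interferon-stimulated genes are the genes that cells switch on when interferon reaches them. They were measured here in dendritic cells of tumour-draining lymph nodes collected at different times of day. The group held 43 genes: sensors of viral nucleic acid (4 genes), transcription factors and regulators of interferon signalling (6), the IFIT family (3), the OAS family with Isg20 (6), Mx proteins, viperin and other antiviral effectors (12), immunity-related GTPases (5), guanylate-binding proteins (5) and chemokines (2). Each symbol was looked up in the expression table, and a gene counted where it reached 1 CPM (reads on the gene per 1000000 reads counted) in at least 5 of 44 libraries. All 43 symbols passed, out of 11963 genes that did.

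The study asked whether the hour of tumour engraftment sets how dendritic cells respond. B16-F10-OVA melanoma cells or PBS were injected into the flank, and the draining inguinal lymph nodes were taken 24 h later at zeitgeber time (ZT, hours after lights on) 3, 9, 15 or 21. CD45+ CD11c+ MHCII high cells, the migratory dendritic cell gate, were sorted and their RNA sequenced, 1 mouse per library. Mice labelled WT received tumour cells (n = 5 per time), as did mice labelled KO (n = 3 per time), and WT mice that received PBS made up the sham group (n = 3 per time). All mice were kept in a light-dark cycle and all were on the C57BL/6 background. The KO mice carried floxed Bmal1 with Cre under the Clec9a promoter, which acts in conventional dendritic cells and their precursors, so other cells in the gate keep the gene. The labels gave no batch.

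Type I interferons bind IFNAR1 and IFNAR2 and act through JAK kinases on the ISGF3 complex, which holds STAT2 and IRF9 and binds the interferon-stimulated response element (ISRE) in promoters. Interferon-γ binds IFNGR1 and IFNGR2 and acts on the gamma-activated site (GAS). Many of the genes respond to both signals, while Cxcl9, the immunity-related GTPases and the guanylate-binding proteins are known above all as responses to interferon-γ. Dendritic cells both make and sense interferon, and their interferon response promotes cross-priming of CD8+ T cells.

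The promoters of 32 of the 43 genes were in the RefSeq table used (build GRCm38.p6), and the 250 bases before each start were searched on both strands. The ISRE core, spelled GAAANNGAAA, was found for 16 of the 32 genes (50.0%), against 3.41% of the 9626 genes passing the level filter that had a promoter there. The GAS core, TTCNNNGAA, was found for 9 of 32 (28.1%), against 7.36%. The E-box CACGTG, the motif bound by BMAL1 with CLOCK, was found for 1 of 32 (3.12%), which was Trim25, against 9.74%. Over all 32851 promoters of the table the shares were 2.98%, 7.02% and 6.02%. A match is a description of letters and not a bound site. 4 promoters follow, with ISRE and GAS core letters in capitals. Isg15 is shown for its run of overlapping ISRE cores 57 to 78 bases before the start, Igtp for a GAS core beside an ISRE core, and Gbp7 and Cxcl10 because their levels differed between groups. Isg15 lies at chr4:156200819-156201068 on the minus strand, Igtp at chr11:58199306-58199555 on the plus strand, Gbp7 at chr3:142530086-142530335 on the plus strand and Cxcl10 at chr5:92348890-92349139 on the minus strand.
Isg15: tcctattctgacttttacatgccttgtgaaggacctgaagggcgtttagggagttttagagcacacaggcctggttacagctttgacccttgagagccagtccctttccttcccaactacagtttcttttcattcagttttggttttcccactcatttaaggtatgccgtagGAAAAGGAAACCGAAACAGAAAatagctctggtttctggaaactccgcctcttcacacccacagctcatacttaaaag
Igtp: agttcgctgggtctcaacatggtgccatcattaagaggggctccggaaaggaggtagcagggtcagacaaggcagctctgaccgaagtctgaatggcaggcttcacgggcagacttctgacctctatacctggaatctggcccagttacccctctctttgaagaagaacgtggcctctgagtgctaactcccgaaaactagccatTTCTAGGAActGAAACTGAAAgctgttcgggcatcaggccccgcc
Gbp7: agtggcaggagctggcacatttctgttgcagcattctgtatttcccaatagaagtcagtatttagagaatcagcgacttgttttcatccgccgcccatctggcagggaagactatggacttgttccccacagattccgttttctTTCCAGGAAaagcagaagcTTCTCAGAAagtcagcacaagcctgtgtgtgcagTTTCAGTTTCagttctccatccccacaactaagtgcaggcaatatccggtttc
Cxcl10: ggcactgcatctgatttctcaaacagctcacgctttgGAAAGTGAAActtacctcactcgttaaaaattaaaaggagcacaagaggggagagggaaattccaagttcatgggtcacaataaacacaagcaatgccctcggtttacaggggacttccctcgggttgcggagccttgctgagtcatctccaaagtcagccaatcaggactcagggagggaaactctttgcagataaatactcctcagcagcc

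Several of the genes lie side by side in the GENCODE annotation of GRCm38. Gbp5, Gbp7, Gbp3 and Gbp2 lie within chr3:142493978-142638008, Ifit2, Ifit3 and Ifit1 within chr19:34550694-34650009, Cxcl9 and Cxcl10 within chr5:92321347-92348889, and Igtp and Irgm2 overlap within chr11:58199556-58222782. In families with near-identical copies a read can belong to more than 1 gene. CPM values of Gbp2, Gbp3, Gbp4, Gbp7 and Oas1a held fractions of a read in 100% of libraries, those of Mx1, Mx2, Igtp and Irgm2 in 97.7%, Ifit1 in 90.9%, Ifit3 in 88.6%, Iigp1 in 63.6% and Ifi47 in 31.8%, so levels of single members of these families are uncertain.

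The sorted cells carried the markers of migratory dendritic cells. The summed level of 13 such markers was 33344 to 43884 CPM in WT, 32567 to 45070 CPM in KO and 24843 to 42180 CPM in PBS libraries. Markers of other cells moved with the groups. The sum of 13 monocyte and macrophage markers had a median of 894 CPM (571 to 1421) in WT, 2024 CPM (1175 to 3943) in KO and 3257 CPM (2451 to 4191) in PBS libraries, and that of 9 NK cell markers was 28.4 CPM (18.3 to 48.4), 53.0 CPM (28.0 to 110.2) and 121 CPM (74.4 to 449). Most of the monocyte and macrophage sum came from Lyz2 (medians of 564, 1309 and 2063 CPM in WT, KO and PBS libraries) and Apoe (216, 426 and 778 CPM). 3 of the 13 monocyte and macrophage markers and 4 of the 9 NK cell markers had a median under 1 CPM in WT libraries. Reads on genes, estimated from the value of 1 read, were also fewer in WT libraries (20088012 to 28962671) than in KO (29406729 to 55799163) and PBS libraries (28003328 to 49590055), which cannot be told apart from the WT group. In bulk samples, fewer cells of a type and less RNA per cell cannot be told apart. Arntl, which encodes BMAL1, was not lower in the libraries labelled KO, at 19.9 ± 6.91 CPM (SD, n = 12), than in WT at 14.8 ± 3.65 CPM (n = 20) or PBS at 21.7 ± 6.11 CPM (n = 12). The gene was counted whole, so loss of a floxed exon was not measured, and these are called the libraries labelled KO or, in short, KO libraries.

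Tumour-bearing WT mice were compared with sham mice first, and most of the genes called were lower in WT. 12 of the 43 genes were lower in WT than in PBS libraries at an adjusted p under 0.05, averaged over the 4 times, where 24.6% of all genes were. 3 genes were higher (Isg15, Gbp2 and Irf9), where 13.3% of all genes were. The 15 genes called made up 34.9%, close to the 37.9% of all genes called. The median difference over the 43 genes was -0.11 on the log2 scale and that of all genes -0.04. Of the 43 genes 33 were below 0, where 55.3% of all genes were. Among all genes called, 35.1% were higher, and 46.1% with libraries scaled by the median of ratios. Decreases were steep in a handful of genes and shallow elsewhere.

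Cxcl10, a CXCR3 ligand that draws T cells and NK cells, had a median of 15.5 CPM (4.59 to 39.4) in WT libraries, 31.8 CPM (20.6 to 45.2) in KO libraries and 43.8 CPM (34.7 to 70.7) in PBS libraries. 19 of the 20 WT libraries lay below the lowest PBS library, and only the ZT15 replicate 2 library, the highest of its group, did not. Cxcl10 was 3.19-fold lower in WT than in PBS (log2 difference -1.68 ± 0.15 SE, adjusted p = 9.95e-10, limma). Its neighbour Cxcl9, which signals through the same receptor, had a median of 11.3 CPM (7.05 to 31.6) in WT and 35.9 CPM (17.9 to 64.3) in PBS libraries, and 16 WT libraries lay below all PBS libraries. Cxcl9 was 2.77-fold lower (log2 difference -1.47 ± 0.15 SE, adjusted p = 9.56e-09).

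Ly6e encodes a GPI-anchored surface protein that can restrict the entry of some viruses. It was the 1 gene of the 43 whose WT and PBS libraries did not overlap, where 1.73% of all genes were lower in every WT library. Its median was 238 CPM (107 to 426) in WT, 416 CPM (278 to 773) in KO and 670 CPM (480 to 1497) in PBS libraries. Ly6e was 3.08-fold lower in WT (log2 difference -1.62 ± 0.11 SE, adjusted p = 5.65e-12), and the difference was -1.49, -2.13, -1.48 and -1.40 at ZT3, ZT9, ZT15 and ZT21. The change of this difference with time did not pass the threshold (adjusted p = 0.50).

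**Figure D1:**
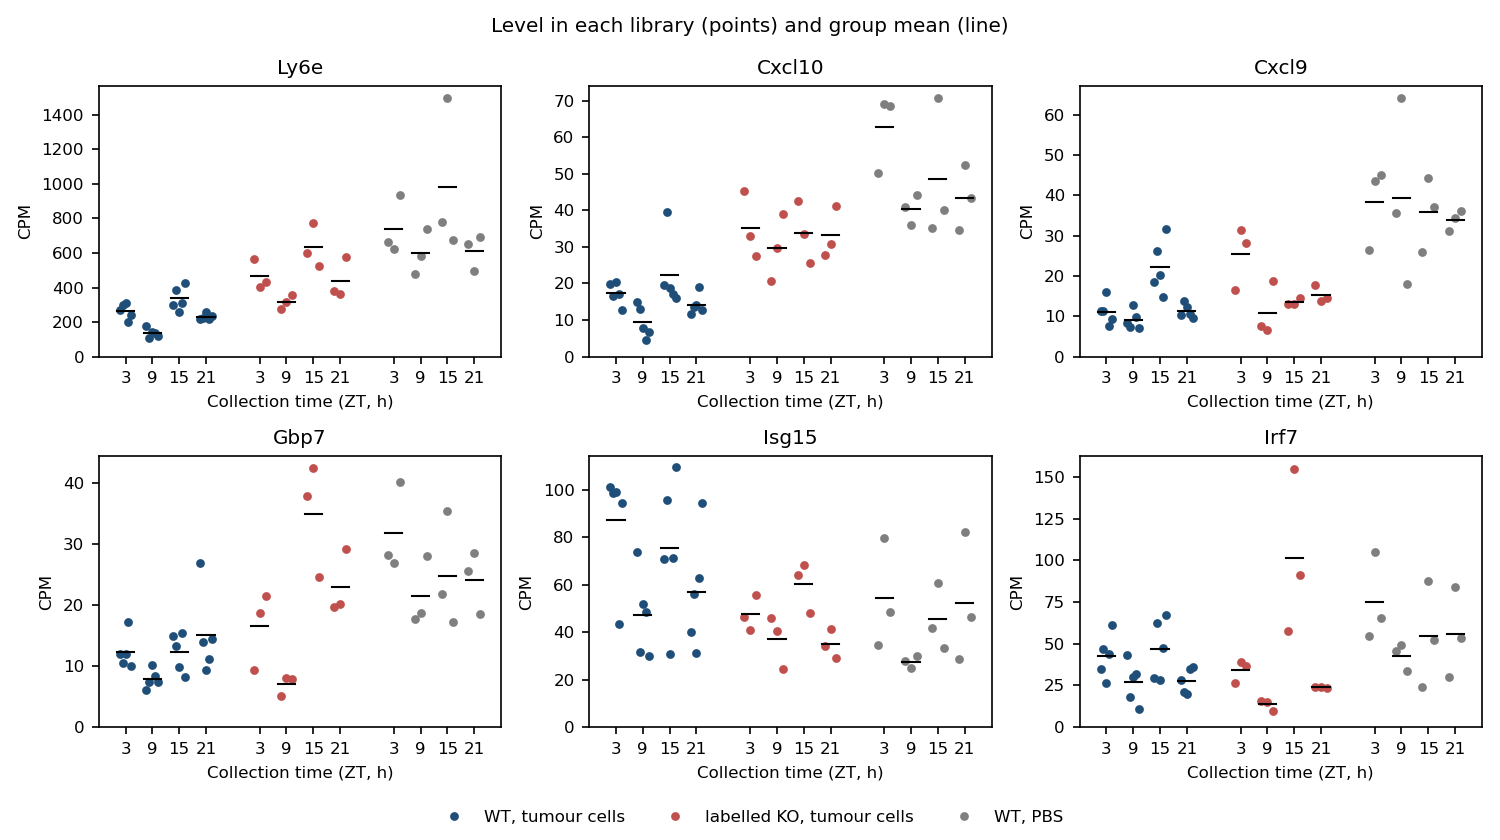
Levels in CPM (vertical axes, from 0) of Ly6e, Cxcl10, Cxcl9, Gbp7, Isg15 and Irf7 in each of the 44 libraries by collection time (horizontal axes, ZT in hours), with a line at each group mean and colours for WT, KO and PBS. Ly6e in WT libraries (107 to 426 CPM) lies wholly below PBS libraries (480 to 1497 CPM), while Isg15 reaches higher in WT.

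Immunity-related GTPases, which assemble on the vacuoles of intracellular pathogens, were lower in WT than in PBS libraries for 4 of 5 genes, where 24.6% of all genes were. Iigp1 had a median of 3.68 CPM (1.80 to 7.69) in WT and 8.44 CPM (4.89 to 11.9) in PBS libraries, 2.11-fold lower (log2 difference -1.08 ± 0.16 SE, adjusted p = 5.05e-06). Igtp, whose promoter is printed above, was 1.34-fold lower (-0.42 ± 0.09 SE, adjusted p = 0.00085). Ifi47 and Irgm1 were lower by smaller steps (-0.29 ± 0.09 and -0.22 ± 0.08), and neither call held with median-of-ratios scaling or with the replicate number as a block. The Irgm1 call was also lost without any of 5 single PBS libraries (ZT3 replicates 2 and 3, ZT9 replicate 2, ZT15 replicate 3 and ZT21 replicate 2), with adjusted p up to 0.262 over all settings. Irgm2, which overlaps Igtp, was not called (0.17 ± 0.13, adjusted p = 0.343).

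Guanylate-binding proteins, large GTPases of cell-autonomous defence, split. Gbp7 had a median of 10.8 CPM (6.12 to 26.8) in WT and 26.2 CPM (17.2 to 40.1) in PBS libraries, and was 2.14-fold lower (-1.10 ± 0.14 SE, adjusted p = 4.03e-07), with 18 of 20 WT libraries below all PBS libraries. Gbp2 went the other way by a small margin, with medians of 327 CPM (281 to 369) and 291 CPM (212 to 368) that overlapped, a difference of 0.16 ± 0.06 (adjusted p = 0.0456). Its call was lost in 21 of 32 omissions of a single library. It was also lost with the replicate number as a block and without WT ZT3 replicates 2 and 3 together. Gbp3, Gbp4 and Gbp5 were not called, with differences of -0.00, -0.08 and -0.03.

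Among regulators, Irf7, the transcription factor that amplifies type I interferon production, was lower in WT, with a median of 33.1 CPM (10.9 to 67.1) against 52.8 CPM (24.2 to 105.2) in PBS libraries (-0.66 ± 0.21 SE, adjusted p = 0.0143). Isg15, a ubiquitin-like modifier, was higher, with a median of 66.7 CPM (29.8 to 109.7) against 38.2 CPM (25.1 to 82.1), 1.46-fold (0.55 ± 0.20 SE, adjusted p = 0.0338). Ranges of WT and PBS libraries overlapped for both genes, and 7 WT libraries lay above all PBS libraries for Isg15. Irf9, the DNA-binding subunit of ISGF3, was 1.11-fold higher (0.15 ± 0.06, adjusted p = 0.0367). With the replicate number as a block, the Isg15 and Irf9 calls were both lost. Isg15 also lost its call without WT ZT3 replicates 2 and 3 together. The Isg15 call was lost without any of 7 single libraries (WT ZT21 replicate 5, PBS ZT3 replicates 1 and 3, PBS ZT9 replicate 2, PBS ZT15 replicate 3, PBS ZT21 replicates 1 and 3), with adjusted p up to 0.0932 over all settings, and that of Irf9 in 13 of 32 omissions, up to 0.162. Stat2 (0.36 ± 0.15, adjusted p = 0.0546), Usp18, which removes ISG15 and dampens IFNAR signalling (-0.03 ± 0.06, adjusted p = 0.725), and Trim25, a ubiquitin ligase of the RIG-I pathway (-0.00 ± 0.08, adjusted p = 0.977), did not pass the threshold. Stat2 passed under 5 of 9 other settings, median-of-ratios scaling among them, and in 7 of 32 omissions (adjusted p from 0.00765 to 0.172 over all settings).

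Of the remaining effectors, Eif2ak2, which encodes the kinase PKR that halts translation, was 1.27-fold lower in WT (-0.35 ± 0.10 SE, adjusted p = 0.00535), Rtp4 1.54-fold lower (-0.62 ± 0.21, adjusted p = 0.0235) and the exonuclease gene Isg20 1.66-fold lower (-0.73 ± 0.20, adjusted p = 0.00569). The Rtp4 call was lost without PBS ZT15 replicate 2 or PBS ZT21 replicate 2 (adjusted p up to 0.0665 over all settings). None of the 3 IFIT genes passed, where 37.9% of all genes did. Ifit1, which binds viral RNA, and Ifit3 had lower fitted means in WT (-0.43 ± 0.20, adjusted p = 0.0899, and -0.63 ± 0.38, adjusted p = 0.21). The fitted mean of Ifit2 was 1.58-fold lower, with a difference below 0 at all 4 times. The Ifit3 difference was -2.01, 0.16, 0.85 and -1.51 at ZT3, ZT9, ZT15 and ZT21. Ifit1 passed without WT ZT9 replicate 1, PBS ZT3 replicate 3 or PBS ZT21 replicate 1, and its difference ran from -0.54 to -0.25 (adjusted p from 0.0293 to 0.293) over all settings. Oas1a and Oasl2, of the family that senses double-stranded RNA, differed by -0.09 ± 0.13 and -0.17 ± 0.24 (adjusted p = 0.63 and 0.61). The same held for viperin, encoded by Rsad2 (0.06 ± 0.15, adjusted p = 0.809), tetherin, encoded by Bst2 (-0.15 ± 0.08, adjusted p = 0.123), and the pro-apoptotic factor Xaf1 (-0.14 ± 0.15, adjusted p = 0.506). Bst2 did pass with array weights and without WT ZT15 replicate 2 (adjusted p from 0.0333 to 0.413 over all settings). The sensors Dhx58 and Zbp1 differed by -0.12 ± 0.14 and 0.03 ± 0.10, and 0 of 4 sensors were called, where 37.9% of all genes were.

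**Figure D2:**
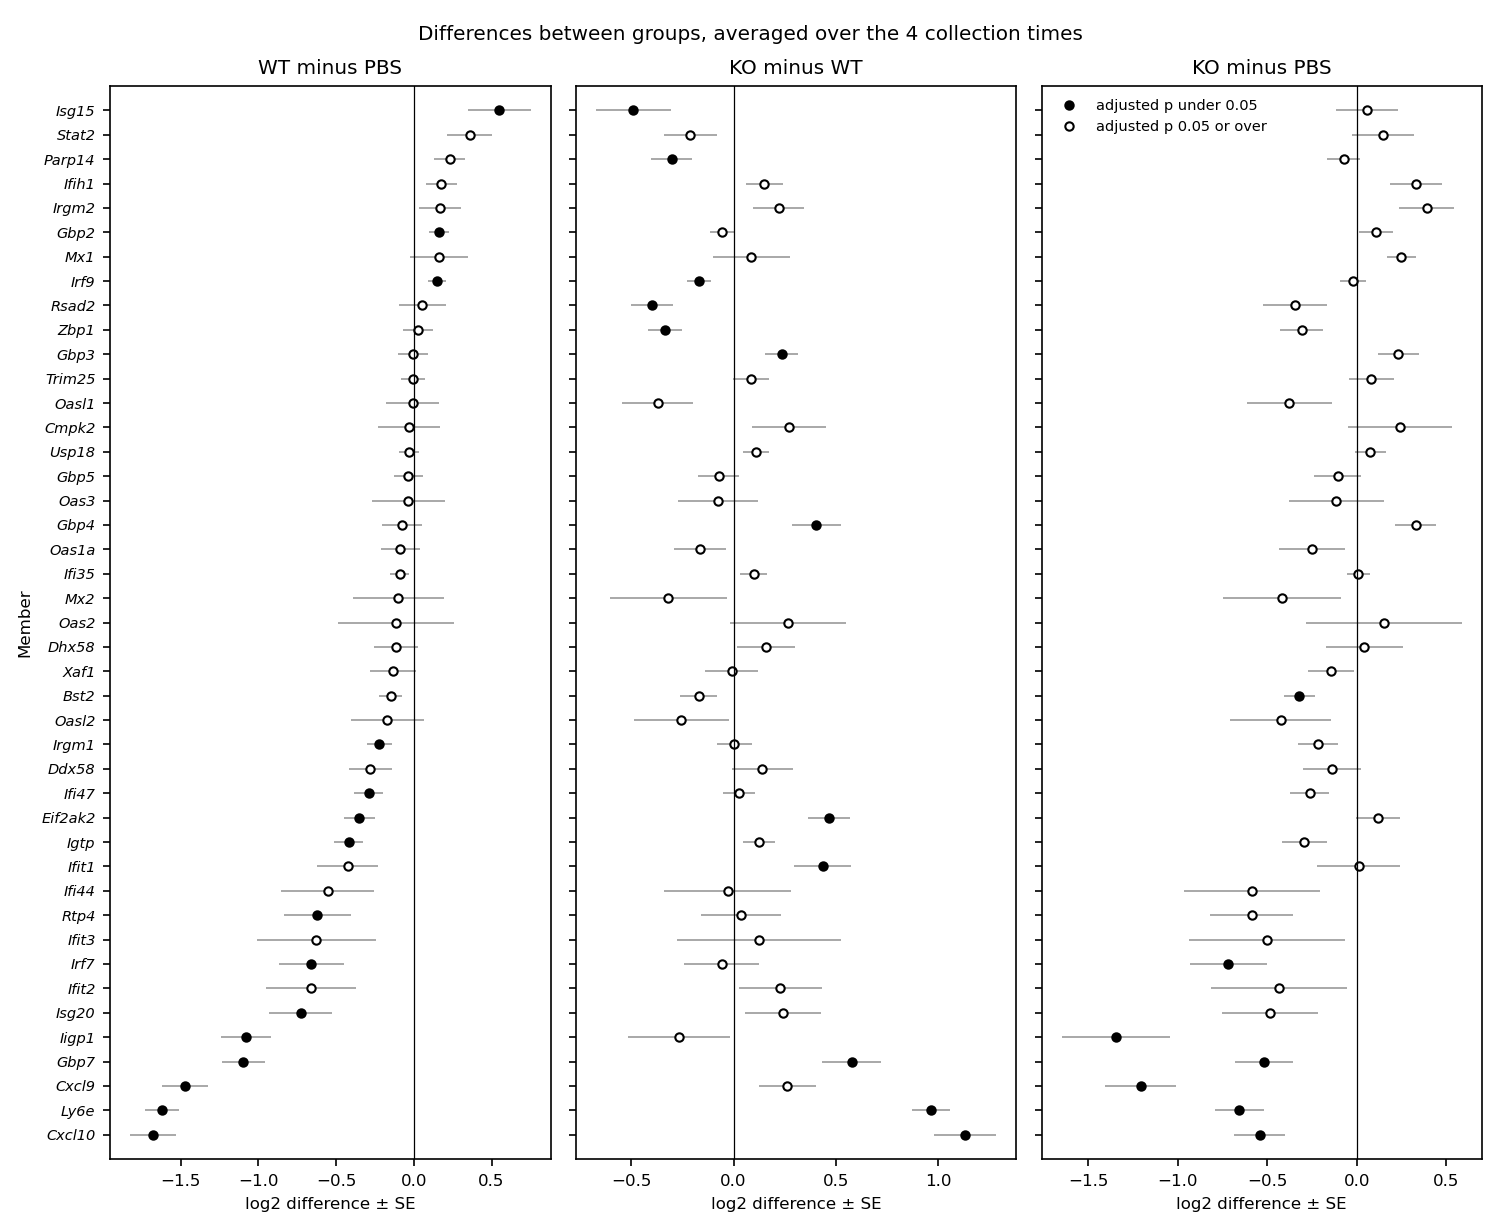
Difference between groups for each of the 43 genes (vertical axis, ordered by WT minus PBS), averaged over the 4 collection times, on the log2(CPM + 0.5) scale with standard errors (horizontal axes). Filled points have an adjusted p under 0.05, and the chemokines, Ly6e, Gbp7 and Iigp1 stand furthest below 0 in WT minus PBS.

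Ligands, receptors and transcription factors of the pathway were examined beside the group. Of 21 ligands listed, Ifng was the 1 that passed the level filter. Ifng had a median of 1.06 CPM (0 to 3.03) in WT, 5.76 CPM (2.28 to 11.6) in KO and 11.3 CPM (3.43 to 21.5) in PBS libraries, a log2 difference of -2.91 ± 0.27 for WT minus PBS (adjusted p = 1.85e-09). Ifngr1 was 62.6 CPM (50.7 to 86.5) in WT and 158 CPM (126.9 to 225.3) in PBS libraries (-1.27 ± 0.07, adjusted p = 2.18e-13), with no overlap. Ifnar2 was slightly lower (-0.18 ± 0.05, adjusted p = 0.00959), and Ifnar1 and Ifngr2 were not called (-0.08 ± 0.11 and 0.04 ± 0.05). Irf1 (-0.02 ± 0.05) and Irf3 (-0.05 ± 0.07) were not called, while Irf8 was lower (-0.47 ± 0.07, adjusted p = 1.29e-05). Of 65 other interferon-stimulated genes tested, 10 were higher and 15 lower in WT than in PBS (where 13.3% and 24.6% of all genes were), with a median difference of 0.02. Cd69, an early activation marker among them, was lower by 2.40 ± 0.13 (adjusted p = 7.79e-14), with a range of 13.3 to 40.9 CPM in WT and 72.1 to 202 CPM in PBS libraries.

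Beside these differences, 12 of 13 monocyte and macrophage markers and 8 of 9 NK cell markers were lower in WT than in PBS libraries, with none higher, as were 11 of 15 plasmacytoid, 10 of 12 type 1 and 6 of 10 type 2 conventional dendritic cell markers, with 1 higher in each. 7 of 13 migratory dendritic cell markers were higher and 0 lower. Of 14 T cell markers, 9 were lower and 3 higher, and of 3 Langerhans cell markers 2 were lower. Over all genes 24.6% were lower and 13.3% higher. The part of these cells in the lower levels was not tested.

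Across the day in WT mice, 5 genes differed among the 4 times at an adjusted p under 0.05 (11.6%, where 5.28% of all genes did): Ly6e, Cxcl9, Mx1, Cxcl10 and Gbp4. 11 did at an unadjusted p under 0.05, where 23.1% of all genes did. Leaving out each library in turn, the count of 5 ran from 2 (as without WT ZT15 replicate 3) to 6. It rose with array weights. Ly6e was 269, 296, 309, 200 and 240 CPM at ZT3, 178, 107, 140, 139 and 122 CPM at ZT9, 301, 388, 260, 308 and 426 CPM at ZT15 and 215, 225, 257, 219 and 235 CPM at ZT21 (adjusted p = 0.0019). Every ZT9 library was below all others and every ZT15 library was above all of ZT21. Cxcl9 was highest at ZT15, at 18.5, 26.1, 20.1, 14.7 and 31.6 CPM, with the other times between 7.05 and 16.1 CPM (adjusted p = 0.00981). Cxcl10 was 22.2 ± 9.7 CPM (SD, n = 5) at ZT15 and 9.35 ± 4.3 CPM at ZT9 (adjusted p = 0.0416), a call lost in 12 of 20 omissions of a single library (adjusted p up to 0.0951).

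The monocyte and macrophage markers followed the same order in WT, with median sums of 1099, 661, 1334 and 883 CPM at ZT3, ZT9, ZT15 and ZT21, and the ZT9 (571 to 805 CPM) and ZT15 (1122 to 1405 CPM) libraries did not overlap. 8 of the 13 markers differed among times at an adjusted p under 0.05, where 5.28% of all genes did. NK cell markers had median sums of 27.0, 20.8, 41.7 and 28.6 CPM, type 2 conventional dendritic cell markers 295, 249, 329 and 261 CPM and plasmacytoid dendritic cell markers 329, 305, 344 and 310 CPM. Of the latter groups 2 of 9, 3 of 10 and 3 of 15 markers were called among times, and 3 of 14 T cell markers. Their part in the Ly6e, Cxcl9 and Cxcl10 differences was not tested.

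Mx1, a dynamin-like GTPase that is disrupted in most laboratory mouse strains, was lowest at ZT15. It was 74.0, 145, 50.0, 52.8 and 44.6 CPM at ZT15, against 211 to 275 CPM in the 10 libraries of ZT9 and ZT21 (adjusted p = 0.0176). The 5 ZT3 libraries were 269, 97.9, 47.5, 245 and 208 CPM, so replicates 2 and 3 lay with ZT15 and the others with ZT9 and ZT21. These 7 low libraries were the 7 with the lowest median-of-ratios scaling factors of all 44 (0.802 to 0.955). Gbp4 split in the same libraries, at 113 to 182 CPM at ZT15, 190 and 106 CPM in ZT3 replicates 2 and 3, and 227 to 329 CPM in the other WT libraries (adjusted p = 0.0452). In PBS libraries Mx1 stayed between 117 and 163 CPM and in KO libraries between 113 and 222 CPM. The lowest value of each lay at ZT15, where the libraries were 120, 117 and 142 CPM in PBS and 113, 123 and 168 CPM in KO. The Mx1 call was lost without ZT15 replicate 3, 4 or 5 (adjusted p up to 0.0567), and that of Gbp4 in 16 of 20 omissions (up to 0.115). The study ran the experiment more than once, and the labels do not say which run a library came from. Whether the low level belongs to the hour, to a run or to these libraries was not tested.

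**Figure D3:**
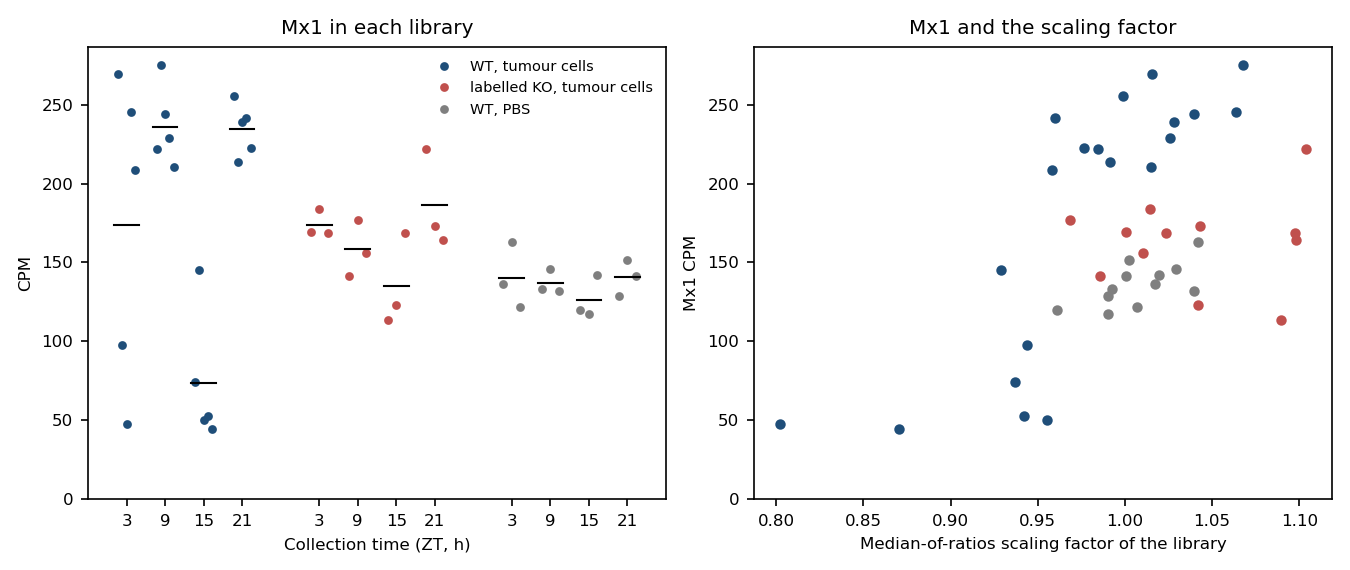
Mx1 level in CPM (vertical axes, from 0) in each library by collection time (left, ZT in hours, lines at group means) and against the library's median-of-ratios scaling factor (right), coloured by group. All 5 WT libraries of ZT15 and 2 of ZT3 sit at 44.6 to 145 CPM with scaling factors of 0.802 to 0.955.

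No gene of the 43 was called by a 24 h cosine curve in WT mice, where 0.0251% of all genes were, and 5 had an unadjusted p under 0.05, where 9.2% of all genes did. Trim25, the gene with an E-box in its promoter window, was 36.5 ± 3.5, 39.0 ± 4.2, 28.3 ± 3.2 and 31.96 ± 4.7 CPM (SD, n = 5) at ZT3, ZT9, ZT15 and ZT21. It was called neither among times (adjusted p = 0.0568) nor by the cosine curve (adjusted p = 0.302). Means of Isg15 ranged from 47.0 to 87.3 CPM and of Irf7 from 26.8 to 46.8 CPM, and neither differed among times (adjusted p = 0.29 and 0.217). Over the 43 genes the highest mean fell at ZT3 for 12, at ZT9 for 12, at ZT15 for 9 and at ZT21 for 10, where 14%, 40.2%, 19.3% and 26.4% of all genes peaked.

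In the libraries labelled KO most of the genes peaked at the same time. The highest mean fell at ZT15 for 28 of the 43 genes, where 34.3% of all genes peaked, and the lowest at ZT9 for 32, where 37.4% of all genes were lowest. The mean of the 43 genes on the log2 scale was 5.01 ± 0.22, 4.40 ± 0.05, 5.33 ± 0.21 and 4.69 ± 0.11 (SD, n = 3) at ZT3, ZT9, ZT15 and ZT21, and the ZT15 libraries lay above those of every other time. In WT libraries the same means were 4.88, 4.70, 4.75 and 4.81. No single gene was called in KO libraries at an adjusted p under 0.05 (limma), where 0% of all genes were. At an unadjusted p under 0.05 there were 16 (37.2%), where 10.3% of all genes were.

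Irf7 was 26.2, 39.2 and 36.6 CPM at ZT3, 15.7, 15.1 and 9.89 CPM at ZT9, 57.7, 155 and 90.9 CPM at ZT15 and 24.3, 23.8 and 23.2 CPM at ZT21 in KO libraries (adjusted p = 0.141). It passed the threshold with genes of a mean of at least 10 CPM, an intensity trend or array weights, and without KO ZT15 replicate 1 (adjusted p from 0.0132 to 0.307 over all settings). All ZT15 values were above those of the other times. Ifit2 was 21.3, 22.6 and 18.7 CPM at ZT15 and 1.52 to 16.7 CPM at other times, and Rtp4 was 16.7, 51.9 and 19.2 CPM at ZT15 and 3.43, 3.88 and 3.27 CPM at ZT9 (adjusted p = 0.286 and 0.175). Gbp7 was 37.8, 42.4 and 24.6 CPM at ZT15 and 5.12, 8.05 and 7.88 CPM at ZT9, and Oasl2 was 29.7, 82.6 and 20.6 CPM at ZT15 and 2.03, 6.85 and 2.52 CPM at ZT21 (adjusted p = 0.192 and 0.226). Replicate 2 of ZT15 was the highest of its group for 25 of the 43 genes. By role, 3 of 3 IFIT genes and 5 of 6 genes of the OAS family with Isg20 had an unadjusted p under 0.05, as did 1 of 4 sensors, 2 of 6 regulators, 3 of 12 Mx and other effectors, 0 of 5 immunity-related GTPases, 1 of 5 guanylate-binding proteins and 1 of 2 chemokines, where 10.3% of all genes did. The roles were not tested against each other. Of the other genes, 1 peaked at ZT9, 4 at ZT21 and 10 at ZT3, among them Cxcl9 (25.4 ± 7.9 CPM at ZT3 and 13.5 ± 0.82 CPM at ZT15).

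**Figure D4:**
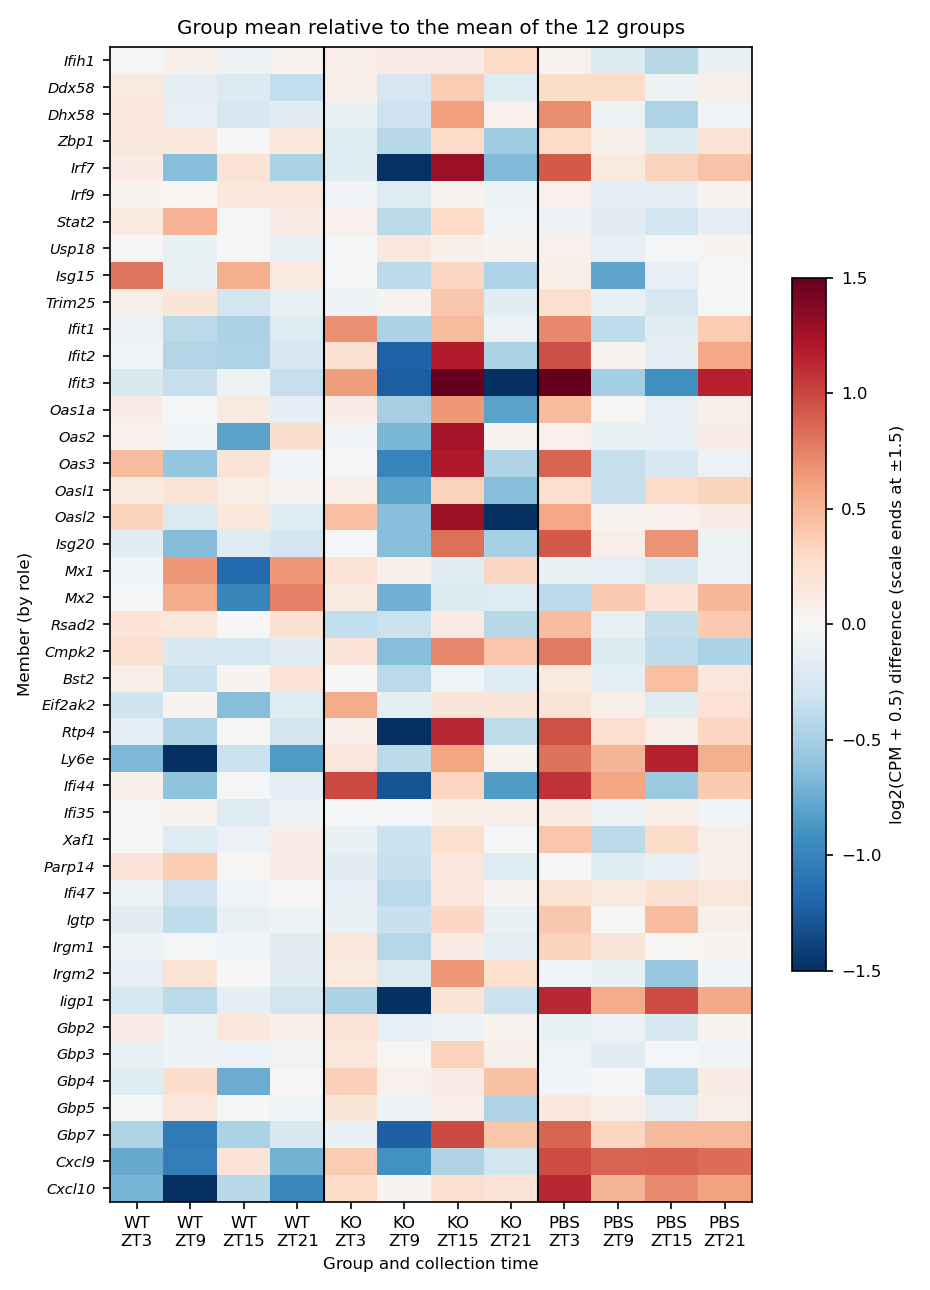
Mean level of each of the 43 genes (rows, by role) in the 12 groups (columns), as the difference on the log2(CPM + 0.5) scale from the gene's mean over the groups, red above and blue below, with colours ending at 1.5 either way. In KO groups 28 genes peak at ZT15 and 32 are lowest at ZT9, and in PBS groups 30 peak at ZT3.

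The monocyte and macrophage marker sum moved with this pattern as well, with medians of 2170, 1213, 2406 and 1924 CPM at ZT3, ZT9, ZT15 and ZT21 in KO libraries. The ZT9 libraries (1175 to 1523 CPM) lay below all others, and the highest, 3943 CPM, was the ZT15 replicate 2 library that also led the interferon-stimulated genes. 11 of the 13 markers had an unadjusted p under 0.05 among times, and 0 an adjusted p under 0.05. That compares with 10.3% and 0% of all genes. Plasmacytoid dendritic cell markers had median sums of 387, 286, 395 and 299 CPM, and type 2 conventional dendritic cell markers 388, 276, 464 and 319 CPM, with 751 CPM in the highest ZT15 library and 4 of 10 markers at an unadjusted p under 0.05. B cell markers had median sums of 56.9, 54.6, 97.7 and 50.7 CPM, with 3 of 8 at an unadjusted p under 0.05. Median sums of NK cell markers were highest at ZT3 (83.6 CPM) and of T cell markers at ZT21 (870 CPM). Their part in the pattern was not tested.

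**Figure D5:**
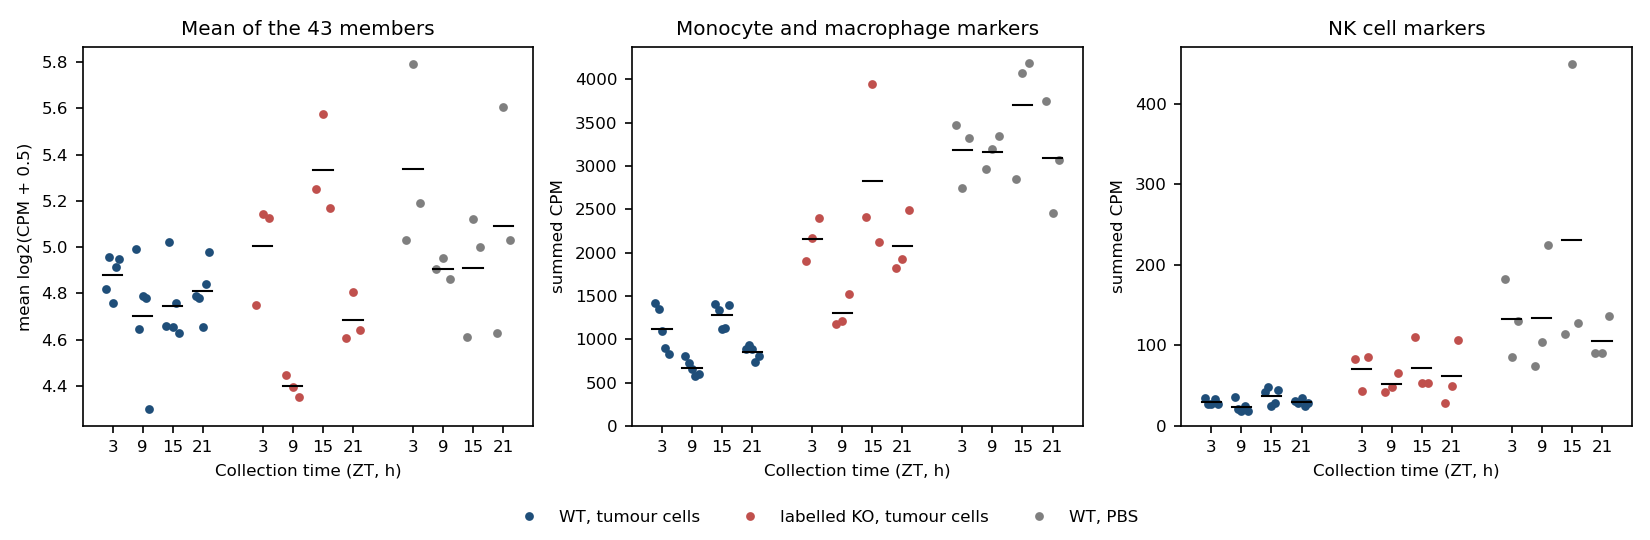
Mean of the 43 genes on the log2(CPM + 0.5) scale (left, axis not from 0), summed CPM of 13 monocyte and macrophage markers (middle) and of 9 NK cell markers (right) in each library, by collection time (ZT in hours) with lines at group means. The KO libraries of ZT9 are lowest within their group in the left and middle panels.

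Whether the difference between KO and WT mice changed with time was tested as an interaction. At an adjusted p under 0.05 it called 0 of the 43, where 0.0502% of all genes were called, and 21 (48.8%) had an unadjusted p under 0.05, where 18.3% of all genes did. This count fell to 13 without KO ZT15 replicate 2, and the smallest values were those of Cxcl9 (adjusted p = 0.101), Oasl2 (adjusted p = 0.101) and Zbp1 (adjusted p = 0.105). Cxcl9 passed with array weights, without WT ZT3 replicate 3 or KO ZT9 replicate 3, and without WT ZT3 replicates 2 and 3 together. Its adjusted p ran from 0.0181 to 0.151 over all settings. Zbp1 passed with array weights (adjusted p down to 0.0405). Counts under other settings are given at the end. A cosine curve called 0 genes in KO libraries (0% of all genes), with 1 at an unadjusted p under 0.05, where 10.5% of all genes were.

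Averaged over times, 7 genes were higher in KO than in WT libraries, where 23.5% of all genes were, and 5 were lower, where 10.2% were. The median difference over the 43 genes was 0.09 and that of all genes 0.10. Of all genes called, 69.8% were higher, and 49.9% with median-of-ratios scaling. Cxcl10 was 2.19-fold higher (1.13 ± 0.15 SE, adjusted p = 2.19e-06) and Ly6e 1.95-fold higher (0.97 ± 0.09, adjusted p = 1.32e-08). Gbp7 (0.58 ± 0.14, adjusted p = 0.00293), Eif2ak2 (0.47 ± 0.10, adjusted p = 0.00105), Ifit1 (0.44 ± 0.14, adjusted p = 0.0172), Gbp4 (0.41 ± 0.12, adjusted p = 0.00982) and Gbp3 (0.24 ± 0.08, adjusted p = 0.0239) were higher by less. For Gbp7, Eif2ak2, Ifit1 and Gbp4 the difference was below 0 at ZT9 (-0.17, -0.18, -0.07 and -0.20). It was above 0 at the other 3 times for these genes, and at all 4 times for Cxcl10, Ly6e and Gbp3. The calls of Ifit1 and Gbp3 did not hold with median-of-ratios scaling. That of Ifit1 was also lost with the replicate block (adjusted p up to 0.131 over all settings). That of Gbp3 was also lost without KO ZT3 replicate 2, KO ZT9 replicate 3 or KO ZT21 replicate 1 (adjusted p up to 0.126 over all settings).

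The 5 genes lower in KO than in WT libraries were Zbp1, Rsad2, Parp14, Isg15 and Irf9. Zbp1, a sensor of Z-form nucleic acid, had a median of 41.0 CPM (28.1 to 69.8) in KO and 52.9 CPM (43.2 to 77.6) in WT libraries (-0.33 ± 0.08 SE, adjusted p = 0.00319). Rsad2 had a median of 19.9 CPM (14.8 to 31.2) in KO and 28.6 CPM (17.0 to 34.5) in WT libraries (-0.40 ± 0.10, adjusted p = 0.00395). Parp14, an ADP-ribosyltransferase, Isg15 and Irf9 were lower by 0.30 ± 0.10, 0.49 ± 0.18 and 0.17 ± 0.06 (adjusted p = 0.0217, 0.0409 and 0.0253). For Zbp1, Rsad2 and Parp14 the difference was above 0 at ZT15 (0.29, 0.11 and 0.16) and below 0 at the other 3 times. For Isg15 and Irf9 it was below 0 at all 4 times. KO and WT ranges overlapped for Zbp1 and Rsad2. The Isg15 call was lost in 19 of 32 omissions (adjusted p up to 0.105 over all settings) and that of Irf9 without KO ZT9 replicate 3 or KO ZT21 replicate 3 (up to 0.113). Both calls were also lost with the replicate block. That of Isg15 was lost with array weights too, and without WT ZT3 replicates 2 and 3 together.

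Against PBS libraries, 7 genes were lower in KO libraries (16.3%), where 4.3% of all genes were, and 0 were higher, where 5.43% were. The median difference over the 43 genes was -0.14, against 0.02 for all genes. Of all genes called, 55.8% were higher, and 39.3% with median-of-ratios scaling. Iigp1 was 2.54-fold lower (-1.35 ± 0.30 SE, adjusted p = 0.0113) and Cxcl9 2.31-fold lower (-1.21 ± 0.20, adjusted p = 0.0016). Irf7 (-0.72 ± 0.21, adjusted p = 0.0421), Ly6e (-0.66 ± 0.14, adjusted p = 0.00841), Cxcl10 (-0.54 ± 0.14, adjusted p = 0.0239), Gbp7 (-0.52 ± 0.16, adjusted p = 0.04995) and Bst2 (-0.32 ± 0.09, adjusted p = 0.026) followed. These are averages over the 4 times. Irf7 and Gbp7 had differences above 0 at ZT15 (0.95 and 0.51) and below 0 at the other 3 times. Those of Iigp1, Cxcl9, Ly6e, Cxcl10 and Bst2 were below 0 at all 4 times. Irf7 and Gbp7 lost their calls in 17 and 18 of 24 omissions (adjusted p up to 0.0756 and 0.0923), and Bst2 without PBS ZT15 replicate 2 (0.0518). For Ly6e and Cxcl10 the KO mean lay between those of WT and PBS, at 15.8, 33.0 and 48.8 CPM in WT, KO and PBS libraries for Cxcl10. KO libraries overlapped both groups: 6 of 12 for Ly6e and 3 of 12 for Cxcl10 lay above all WT libraries, and 7 and 8 lay below all PBS libraries. Beside these differences, 11 of 15 plasmacytoid, 6 of 12 type 1 and 4 of 10 type 2 conventional dendritic cell markers, 6 of 13 monocyte and macrophage markers and 4 of 9 NK cell markers were lower in KO than in PBS libraries, with 0 higher. 2 of 3 Langerhans cell markers (Cd207 and Epcam) and 3 of 13 migratory dendritic cell markers were higher, with 0 lower, and the sum of the 4 Langerhans cell markers listed had medians of 69.6, 114 and 83.4 CPM in WT, KO and PBS libraries. The part of these cells was not tested. The comparisons share their WT, KO and PBS libraries and are not independent of each other.

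Beside the KO and WT differences, 12 of 13 monocyte and macrophage markers and 6 of 9 NK cell markers were higher in KO libraries, with none lower. Of the plasmacytoid markers 7 of 15 were higher and 2 lower, of the type 1 conventional dendritic cell markers 4 of 12 and 1, of the type 2 markers 5 of 10 and 0, of the T cell markers 4 of 14 and 2, and of the Langerhans cell markers 2 of 3 and 0. The part of these cells was not tested. Ifng was higher by 2.13 ± 0.27 (adjusted p = 1.25e-06), Ifngr1 by 1.01 ± 0.07 (adjusted p = 2.76e-11) and Ifnar1 by 0.48 ± 0.10 (adjusted p = 0.000829). Irf1, Irf3 and Irf8 were not called. Of 65 other interferon-stimulated genes, 9 were higher, where 23.5% of all genes were, and 14 lower, where 10.2% were. The most different were Trim12a (chr7:104299894-104315466) and Trim30d (chr7:104470014-104507849), relatives of the antiviral TRIM5 family, which lie on the same chromosome as Arntl (chr7:113207465-113314126). Trim12a was 24.4 ± 4.92 CPM (SD, n = 20) in WT, 26.0 ± 5.50 CPM (n = 12) in PBS and 0.301 ± 0.410 CPM (n = 12) in KO libraries, and Trim30d was 24.7 ± 4.46, 25.6 ± 6.81 and 0.903 ± 1.20 CPM. No KO library reached the lowest WT or PBS library for either gene.

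Sham mice were compared among times in the same way. 0 genes were called among times, where 0% of all genes were, and 2 (Bst2 and Ifit3) had an unadjusted p under 0.05, where 7.44% of all genes did. The cosine curve called 0 genes (0% of all genes), with 2 at an unadjusted p under 0.05, where 7.38% of all genes were. 30 genes had their highest mean at ZT3, where 26.3% of all genes did, and 0 at ZT9, where 25.9% did. PBS ZT3 replicate 2 was the highest of its group for 35 of the 43 genes and PBS ZT21 replicate 2 for 37. Ifit2 was 52.1 and 46.1 CPM in these libraries and 3.84 to 20.97 CPM in the other PBS libraries. The same libraries had the lowest monocyte and macrophage marker sums of their groups, at 2743 and 2451 CPM. Their plasmacytoid dendritic cell marker sums were the highest of the group at ZT3 (636 CPM) and the lowest at ZT21 (378 CPM). The part of any cell type in these levels was not tested. Whether the WT minus PBS difference changed with time was tested too, with 0 genes called (0% of all genes) and 3 at an unadjusted p under 0.05, where 11.9% of all genes were.

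Per kilobase of exon, the most abundant transcripts of the group in WT mice were Bst2 (134 CPM per kb), Gbp2 (131), Isg15 (88.3) and Usp18 (85.6), and the least abundant Ifi44 (0.121), Oas2 (0.22) and Iigp1 (0.649). Ly6e was 63.9 CPM per kb in WT, 122.7 in KO and 194 in PBS libraries, which placed it above Bst2 (147.6) in PBS libraries. Ifi35 stood at 70.9, 75.6 and 75.2 CPM per kb in WT, KO and PBS libraries. Usp18 had medians of 235, 256 and 253 CPM in WT, KO and PBS libraries. Usp18, Ifi35 and Gbp5 were among the genes not called in any of the 3 comparisons between groups, as were Trim25, Oas1a and Xaf1.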

How the data were processed

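The CPM values were deposited by the authors, who aligned reads of 50 bases to mm10 with STAR, counted them per gene with HTSeq and scaled them to 1000000 per library. Values were whole multiples of 1 read for 87.4% to 89.3% of entries above 0 (within 0.01 of a read), which gave each library's depth but no count table. Each library is 1 mouse, and p-values measure the spread between mice. log2(CPM + 0.5) was fitted with limma 3.58.1 in R 4.3.3 over all 11963 genes reaching 1 CPM in 5 libraries, with Benjamini-Hochberg adjustment. Times were compared within each group (moderated F test), as a 24 h cosine curve, and groups as the mean over 4 times and as an interaction, 2-sided. Named genes were 15 set ones (Irf7 to Cxcl10 by role) and the 3 of smallest p in each comparison, plus receptors, ligands and factors of the pathway, of which not all are reported here. Others named, and the libraries singled out, were chosen after their values were seen. The members, gene lists and marker lists were chosen with earlier results of these data known. The fits were tested on simulated data. For a shift of 1 on the log2 scale, 92% of changed genes were recovered for WT minus PBS. With the shift at ZT15 alone, 61% were recovered among times in WT, 12% in KO and 7% in PBS libraries. With ZT15 of 1 group shifted, the interactions with time recovered 23% for KO minus WT and 36% for WT minus PBS. For a simulated cosine of amplitude 1, a wider swing, the cosine curve recovered 89%, 74% and 76% in WT, KO and PBS libraries. These cosine shares are not comparable with those among times. Pseudocounts of 0.1 and 1, median-of-ratios scaling, other filters, an intensity trend, array weights, a replicate block and leaving out each library were tried. Promoters and gene positions came from RefSeq and GENCODE vM21, and figures were drawn with matplotlib 3.10.9 in Python 3.11.15.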

Additional observations from a re-analysis of the deposited data

Results flagged for a closer look

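In groups of 5 libraries, 9 of 104 sets of values examined (25 named genes and the mean of the 43 genes, at each of 4 times in WT) held 1 library far from the other 4, where chance gives about 5%. WT ZT15 replicate 2 stood apart for 4 genes: Ifit3 at 14.5 CPM (the others 4.93 to 6.503 CPM), Cxcl10 at 39.4 CPM (16.1 to 19.5), Rtp4 at 23.7 CPM (7.84 to 11.4) and Gbp2 at 284 CPM (359 to 369). WT ZT3 replicate 4 stood apart for Isg15 at 43.3 CPM (94.4 to 101.2) and Gbp7 at 17.3 CPM (10.02 to 12.01). WT ZT3 replicate 3, 1 of the 7 libraries with low Mx1, stood apart for Stat2 at 25.3 CPM (53.7 to 59.6) and Ifi47 at 76.6 CPM (49.0 to 56.7), and WT ZT9 replicate 1 for Zbp1 at 77.6 CPM (46.8 to 54.6).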

How the results depend on the processing

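Taken 1 setting at a time, most counts of genes held within 1.5 times their value (120 held and 17 moved). Taken over all settings, several of the counts moved by more. With array weights, 9 genes differed among times in WT, 1 in KO, 1 by the cosine curve in WT, 5 were higher in WT than PBS, 2 higher in KO than PBS, and 10 differed in the KO minus WT interaction. Median-of-ratios scaling gave 5 genes higher in WT than PBS. Genes with a mean of at least 10 CPM, and an intensity trend, gave 1 and 2 genes among times in KO, and 2 each higher in KO than PBS. Without both low WT ZT3 libraries (replicates 2 and 3, chosen after seeing the data), 3 genes were called by the cosine curve in WT, 1 in the WT minus PBS interaction and 3 in the KO minus WT interaction. The share of all genes called is not given for these settings or for the omissions and block below, so these counts are not compared with it. The causes were not tested.

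Leaving out each library in turn, genes among times numbered 2 (without WT ZT15 replicate 3, 4 or 5) to 6 in WT, and 0 to 1 in KO (12 to 19 unadjusted). Counts were 0 (without PBS ZT3 replicate 1, PBS ZT9 replicate 2 or PBS ZT21 replicate 1 or 3) to 5 higher and 10 to 16 lower in WT than PBS, 6 to 8 higher and 3 (without KO ZT9 replicate 3 or KO ZT21 replicate 3) to 6 lower in KO than WT, and 0 to 1 higher and 4 (without PBS ZT15 replicate 2) to 8 lower in KO than PBS, and the KO minus WT interaction gave 0 to 1 (13 to 23 unadjusted).

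Libraries with the same replicate number did not deviate together (mean r -0.0031 over 210 pairs, 0.0011 over 672 pairs with different numbers), so they share only a number. With the replicate block, 3 genes differed among times in WT, 1 was higher in WT than PBS and 3 were lower in KO than WT. The 1 higher gene was none of Isg15, Gbp2 and Irf9, which all lost their calls under the block.

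Depth limits the low genes: Oas2 and Ifi44 were near 1 CPM.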
